A study of Mus musculus with 4 samples.

Results

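Bax, Bbc3, Pmaip1, Fas, Tnfrsf10b, Perp, Eda2r, Aen, Apaf1 and Zmat3 are genes that p53 induces and that are linked to cell death. These 10 genes were chosen by name, and all 10 stand among the 12390 genes of the deposited table once its Ensembl identifiers are matched to GENCODE mouse symbols. The libraries hold RNA of mouse bone marrow cells that were sorted through the Lin-Sca-1+c-Kit+CD48-CD150+ gate, which is used to isolate hematopoietic stem cells. The 2 control libraries came from mice with floxed Ddx21 (Ddx21_fl, genotype label WT, written Ddx211fl/fl in the design text). The 2 knockout libraries (Ddx21_CKO, genotype label KO) came from floxed mice that also carry CAG-CreERT2, a tamoxifen-activated Cre driven by a promoter active in many tissues. Ddx21 is a nucleolar RNA helicase of ribosome production. Only the knockout mice are given as Cre carriers, so an effect of Cre itself and of the deletion cannot be told apart. The sources used here do not give tamoxifen treatment, time, age or sex of the mice, nor which exons are floxed. They also do not tie each library to its own animal, so p-values measure the spread between these libraries, which may be technical.

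The tumor suppressor p53 is a transcription factor that is held low by the ubiquitin ligase Mdm2. Disturbed ribosome production and DNA damage are known to free it from Mdm2. Its cell death targets act at several places: BH3-only proteins and Bax open the outer mitochondrial membrane, Apaf1 assembles the caspase-9-activating apoptosome, and Fas and Tnfrsf10b carry death signals from outside the cell. Hematopoietic stem cells are known for a strong p53 response, in which these genes stand beside inducers of cell cycle arrest.

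p53 binds DNA at pairs of a degenerate 10-letter recognition motif, named here only as the p53 motif. RefSeq promoter windows on GRCm38.p6, the assembly also called mm10, were found for 6 of the 10 genes. A script searched these 300-base windows for the motif without mismatch and for 2 adjacent copies with at most 3 mismatches in 20 letters. The motif reads the same on both strands. The Bbc3 and Bax stretches are shown because they hold a match before the start site. The Aen match is shown because it begins at base 11 after a start site and 121 bases before another. Capitals mark the matched letters, and each sequence is given 5′ to 3′ on the strand of the gene. The Bbc3 stretch is the 250 bases before one of its starts, chr7:16309333-16309582, plus strand, inside the first intron of a Bbc3 transcript that starts upstream. Its pair begins 97 bases before the start, with 3 mismatches. The Bax stretch is the 250 bases before its start, chr7:45466899-45467148, minus strand, with a single exact motif that begins 201 bases before the start. The Aen match, chr7:78895937-78895956, plus strand, is a pair with 3 mismatches in the first exon of the longest Aen gene model. Its first 10 letters hold the motif without mismatch.
Bbc3: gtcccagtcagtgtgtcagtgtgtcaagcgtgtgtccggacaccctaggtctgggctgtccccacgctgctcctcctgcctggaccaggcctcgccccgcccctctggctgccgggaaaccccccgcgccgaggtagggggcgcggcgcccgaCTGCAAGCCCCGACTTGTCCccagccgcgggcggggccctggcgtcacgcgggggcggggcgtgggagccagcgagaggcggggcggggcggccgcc
Bax: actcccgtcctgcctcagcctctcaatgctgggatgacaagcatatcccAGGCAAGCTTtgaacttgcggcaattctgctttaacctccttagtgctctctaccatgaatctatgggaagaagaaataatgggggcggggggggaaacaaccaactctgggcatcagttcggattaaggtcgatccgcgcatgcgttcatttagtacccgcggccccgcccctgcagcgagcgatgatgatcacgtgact
Aen: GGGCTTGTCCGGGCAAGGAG
The windows of Fas, Eda2r and Apaf1 held neither form, and nor did the other Bbc3 windows, which begin at chr7:16310011 and chr7:16310181. This says only that these letters are not in these windows. Of all 32851 windows of this length, 8.36% held an exact motif and 1.38% held a pair. These are shares of windows, and the 6 genes had 9 windows. A match is a description of the letters, and binding was not measured in these libraries.

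The libraries held between 43218007 and 62871452 reads as recovered from the RPKM values (reads divided by transcript length and by the library's total). Deposited values of most genes were higher in the knockout libraries: the median log2 fold change, below called log2 change and always knockout minus control, was 0.31 over the 11742 tested genes, and 0.01 after the libraries were rescaled by a trimmed mean of log ratios. Values are as deposited unless called rescaled. Voom, a limma variant that weights log counts by their precision, was run on rescaled reads. Ddx21, the targeted gene, had 11 and 12.1 RPKM in control against 6.20 and 6.60 RPKM in knockout. Its log2 change was -0.76 (SE 0.30, limma adjusted p = 0.158) and -1.08 after rescaling (0.0963), short of the threshold on both scales, and in voom it was -1.21 with an adjusted p of 0.0303. These values cover the whole gene. The sort genes Kit, Ly6a and Slamf1 were present in every library, and so was Cd48, at 20.7 to 32.4 RPKM, in a gate that takes CD48-negative cells. Markers of myeloid progenitors were abundant: 5 primary granule genes summed to 44969 and 47191 RPKM in control and 33489 and 22203 RPKM in knockout. In bulk RNA, a change in the number of cells of a type and a change in RNA per cell cannot be told apart.

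In the deposited values 5 cell death targets of p53 rose in the knockout libraries, and none fell. Of the 10 genes, 9 had a mean of at least 1 RPKM and were tested, of which 5 rose (Bax, Bbc3, Fas, Perp and Zmat3), 0 fell and 4 did not pass the test (Aen, Tnfrsf10b, Pmaip1 and Apaf1). Called means a Benjamini-Hochberg adjusted p under 0.05 over the 11742 genes from limma on log2(RPKM + 1). In that fit 3.33% of all tested genes were called higher and 0.86% lower. The 10th, Eda2r, had a mean of 0.806 RPKM and stayed below the filter. The median log2 change of the 9 tested genes was 1.19, beside the 0.31 of all tested genes. After rescaling it was 1.0, beside 0.01. Zmat3, Bbc3 and Tnfrsf10b passed the filter only through their knockout values, so they had to differ. Among the other 6, each with a control mean of at least 1 RPKM, 3 were called (Bax, Fas and Perp), with a median of 1.11. After rescaling these 6 were at 1.06 (Bax), 1.15 (Fas), 1.91 (Perp), 0.48 (Aen), 0.41 (Pmaip1) and -0.05 (Apaf1). In both scalings the values of the groups did not overlap for 9 of the 10 genes, 8 of them tested, with both knockout libraries above both control libraries. Over all tested genes the share with that order was 55.5% in deposited and 28.4% in rescaled values. Apaf1 was the exception. Zmat3, Bbc3, Tnfrsf10b and Eda2r, which are among the 9, entered only through their knockout values, so their order was largely fixed. The other genes with that order were Bax, Fas, Perp, Aen and Pmaip1.

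**Figure D1:**
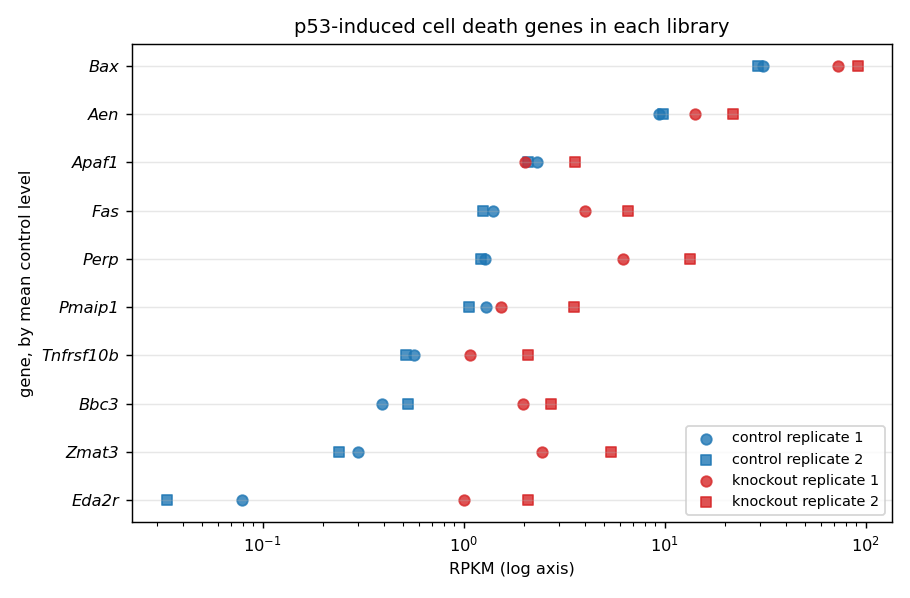
RPKM of the 10 cell death genes (vertical axis, ordered by mean control level) in each of the 4 libraries, on a log axis. Blue symbols are the control and red symbols the knockout libraries, 1 point per library; the groups are apart for every gene except Apaf1.

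The call rests on how the libraries are scaled and on which are used. Limma on rescaled values called 0 of the 9 genes (smallest adjusted p = 0.0757, for Perp) and 0.00852% of all tested genes. In that fit 7 of the 9 had an unadjusted p under 0.05 and a positive sign, beside 8.34% of all tested genes. Of these 7, Zmat3, Bbc3 and Tnfrsf10b had to differ because of the filter, and the others were Bax, Fas, Perp and Aen. The calls of Zmat3 given below carry the same limit. Voom called 4 of the 9 (Bax, Fas, Perp and Zmat3), where 0.435% of all genes were called higher. On deposited values 1 of the 9, Bax, was called without control replicate 1, where 0.315% of all tested genes were called higher, and likewise without control replicate 2, where 0.23% were. Without knockout replicate 2 the count was 3 (Bax, Perp and Zmat3), beside 0.818% of all tested genes. It was 9 without knockout replicate 1, a setting that called 54.3% of all tested genes higher and 4.48% lower. With all 4 libraries, limma on deposited values used the trend over all genes as the spread of each gene, and likewise without a control library. This makes p-values too small where replicates lie far apart. Without a knockout library the spread of the gene itself also entered.

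**Figure D2:**
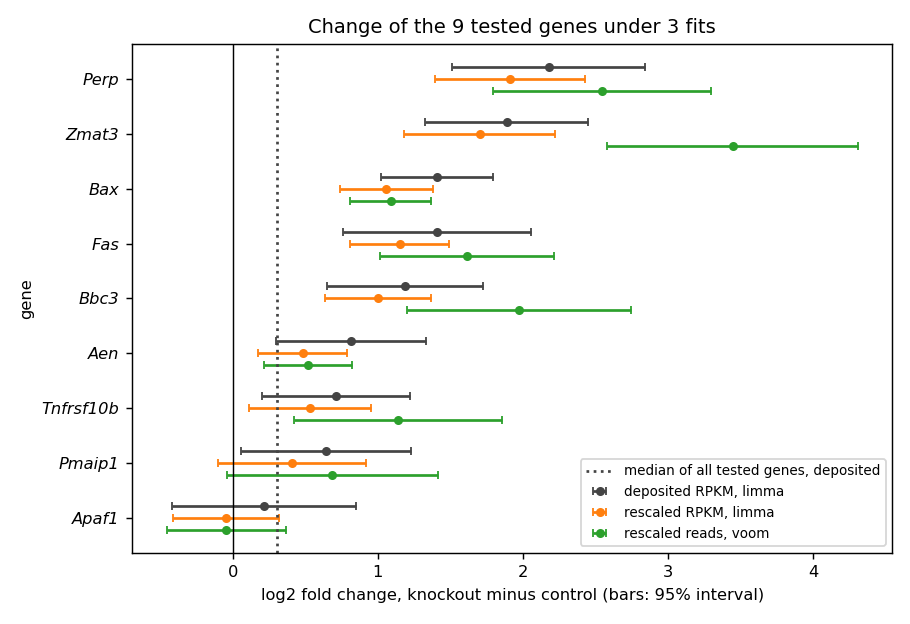
Log2 fold change (horizontal axis, knockout minus control) of the 9 tested genes with 95% intervals in limma on deposited RPKM, limma on rescaled RPKM and voom on rescaled reads. Perp and Zmat3 lie farthest to the right in all 3 fits, and the Apaf1 intervals span 0.

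Bax, the effector that forms pores in the outer mitochondrial membrane, had the highest level of the 10 genes (ENSMUSG00000003873, chromosome 7, 45461697 to 45466898, minus strand, mm10). Bax stood at 31.0 and 29.2 RPKM in control and at 72.6 and 91.6 RPKM in knockout. The lowest knockout value was 2.34 times the highest control value. Mean RPKM was 30.1 ± 1.29 (SD, n = 2) in control and 82.1 ± 13.5 in knockout, and the log2 change was 1.41 (SE 0.20, adjusted p = 2.03e-10), or 1.06 after rescaling. Bax kept its call without any 1 library on deposited values. A second gene model, Gm45808, overlaps Bax on the same strand, and the sources used here do not say how shared reads were assigned.

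Levels within one library can be compared without regard to library scaling, and these ratios were chosen after the values had been seen. Bak1, the other pore-forming effector, stood at 1.56 and 2.63 RPKM in control and at 1.17 and 2.86 RPKM in knockout. The ratio of Bax to Bak1 in RPKM was 19.9 and 11.1 in control and 61.8 and 32 in knockout. Bak1 thus varied within each group, and its own log2 change was -0.07 (SE 0.31, adjusted p = 0.874). Against the anti-apoptotic genes the ratio of Bax to Mcl1 was 4.10 and 3.69 in control and 10.1 and 7.57 in knockout. The ratio of Bax to Bcl2l1, which encodes Bcl-xL, was 2.37 and 1.89 in control and 4.46 and 3.0 in knockout. The ratio of Bax to Bcl2 was 6.74 and 6.11 in control and 16.2 and 9.59 in knockout. In each of these ratios both knockout libraries were above both control libraries, and knockout replicate 1 was the higher. All share Bax, whose own values did not overlap between the groups, so they are not separate results. How many other genes would give such ratios was not computed. Protein was not measured.

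Of the BH3-only genes, whose products neutralize Bcl-2-like guardians or activate Bax, Bbc3 rose and Pmaip1 did not pass the test. One promoter window of Bbc3, which encodes PUMA (ENSMUSG00000002083, chromosome 7, 16308393 to 16318205, plus strand), is printed above with its motif pair. Bbc3 stood at 0.394 and 0.532 RPKM in control and at 1.98 and 2.72 RPKM in knockout. These levels were low and rested on 40 and 61 reads in the control and 156 and 215 reads in the knockout libraries. The mean was 5.07 times higher in knockout, or 3.90 times after rescaling. The log2 change was 1.19 on the log2(RPKM + 1) scale (SE 0.27, adjusted p = 0.00106), a scale that understates the change of low genes. In voom on rescaled reads its log2 change was 1.97 and its adjusted p was 0.0523, just short of the threshold.

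Pmaip1, which encodes NOXA (ENSMUSG00000024521, 66458533 to 66465565, plus strand), differed mostly in one library. Control values were 1.29 and 1.06 RPKM, knockout replicate 1 had 1.53 RPKM and only knockout replicate 2, at 3.56 RPKM, was far above them. Its log2 change was 0.64 (SE 0.30, adjusted p = 0.260; 95% interval 0.06 to 1.23). After rescaling it was 0.41, with an interval of -0.10 to 0.92. The distance of knockout replicate 1 from the control mean, 0.14 on the rescaled log2 scale, was the smallest of the 10 genes in size.

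Apaf1, the scaffold of the apoptosome (ENSMUSG00000019979, chromosome 10, 90989311 to 91082770, minus strand), had overlapping groups. It stood at 2.31 and 2.09 RPKM in control and at 2.01 and 3.57 RPKM in knockout, with the lowest of the 4 values in a knockout library. Its log2 change was 0.21 (SE 0.32, adjusted p = 0.656; 95% interval -0.42 to 0.85) and turned to -0.05 after rescaling and to -0.04 in voom. The reads behind these values, between 577 and 1025 per library, were many more than those of Bbc3.

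Among the 3 receptors of the tumor necrosis factor family, Fas rose. Fas is the receptor of Fas ligand (ENSMUSG00000024778, chromosome 19, 34290666 to 34327772, plus strand). It stood at 1.41 and 1.26 RPKM in control and at 4.03 and 6.59 RPKM in knockout. The log2 change was 1.41 (SE 0.33, adjusted p = 0.00139), and 1.15 after rescaling. The small RNA gene Gm27818 lies within Fas on the same strand.

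Tnfrsf10b, the mouse receptor of the ligand TRAIL (ENSMUSG00000022074, chromosome 14, 69767472 to 69784411, plus strand), stood at 0.567 and 0.518 RPKM in control and at 1.08 and 2.08 RPKM in knockout. The groups did not overlap, and the mean was 2.91 times higher in knockout, or 2.20 times after rescaling. The log2 change of 0.71 (SE 0.26, adjusted p = 0.108; 95% interval 0.20 to 1.22) did not pass the threshold. In voom on rescaled reads it was 1.14, with an adjusted p of 0.140.

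Eda2r, a receptor of ectodysplasin-A2 (ENSMUSG00000034457, X chromosome, 97333840 to 97377216, minus strand), had the largest ratio of means of the 10 genes. It was near 0 in control, at 0.0789 and 0.0333 RPKM (21 and 10 reads), and stood at 1.01 and 2.10 RPKM (209 and 436 reads) in knockout. The lowest knockout value was 12.8 times the highest control value, and the ratio of means was 27.7. An exact two-sided permutation test of this difference gave p = 0.333, the smallest that 2 libraries against 2 can give. With the filter on low values removed, limma gave a log2 change of 1.24 (SE 0.25, adjusted p = 8.86e-05 over all 12390 genes). Its mean passed 1 RPKM in knockout alone, so it is in the table through the group where it is high.

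The remaining genes act outside the core machinery or have a less settled place in it. Perp encodes a tetraspan membrane protein of p53-dependent apoptosis and of cell junctions (ENSMUSG00000019851, chromosome 10, 18845020 to 18857073, plus strand). On the log2(RPKM + 1) scale it had the largest log2 change of the tested members, 2.18 (SE 0.34, adjusted p = 2.71e-08). With a pseudocount of 0.1 Zmat3 was larger, at 3.35 against 2.77 for Perp, and so it was in voom, at 3.45 against 2.54. The change of 2.18 ranked 29 among the 11742 genes by size of increase. It stood at 1.28 and 1.22 RPKM in control and at 6.22 and 13.4 RPKM in knockout, so the control libraries agreed closely while the knockout libraries differed by a ratio of 2.15.

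Zmat3 encodes a zinc finger protein that binds RNA (ENSMUSG00000027663, chromosome 3, 32334792 to 32366014, minus strand). It stood at 0.298 and 0.240 RPKM in control and at 2.45 and 5.39 RPKM in knockout, with all control values far below all knockout values. The mean rose 14.6 times, or 10.9 times after rescaling. The log2 change was 1.89 (SE 0.29, adjusted p = 1.14e-08), at rank 41. In voom, which adds less to low values, the log2 change was 3.45 (SE 0.38, adjusted p = 0.0150).

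Aen encodes a nuclease that degrades DNA during apoptosis (ENSMUSG00000030609, chromosome 7, 78895854 to 78911209, plus strand), and its motif pair is printed above. It stood at 9.40 and 9.84 RPKM in control and at 14.2 and 21.9 RPKM in knockout. The groups did not overlap, and the mean was 1.88 times higher, or 1.44 times after rescaling. The log2 change of 0.82 (SE 0.27), or 0.48 after rescaling, had an adjusted p of 0.0503 on deposited values. It passed the threshold with a pseudocount of 0.1 (adjusted p = 0.0445) and without the filter on low values (0.0447), and did not pass in voom (0.121) or after rescaling (0.188).

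The order of the levels changed between the groups. RPKM is scaled by transcript length, here that of the longest transcript of each gene. Levels of different genes are set side by side on the assumption that this transcript is the one expressed, which was not tested. In control the order of mean RPKM (n = 2) was Bax at 30.1, Aen at 9.62, Apaf1 at 2.20, Fas at 1.33, Perp at 1.25, Pmaip1 at 1.18, Tnfrsf10b at 0.542, Bbc3 at 0.463, Zmat3 at 0.269 and Eda2r at 0.0561. Values of Fas and Perp overlapped, as did those of Perp and Pmaip1 and of Tnfrsf10b and Bbc3. In knockout Bax at 82.1 and Aen at 18.1 kept the first places, with non-overlapping values. Perp moved from place 5 to place 3 at 9.79 RPKM, Zmat3 from place 9 to place 5 at 3.92 RPKM, and Apaf1 from place 3 to place 6 at 2.79 RPKM. From Perp down to Eda2r at 1.56 RPKM, every gene overlapped with its next neighbour.

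The knockout libraries differed from each other. All 10 genes were higher in knockout replicate 2 than in replicate 1, by ratios from 1.26 for Bax to 2.32 for Pmaip1. Of all tested genes, 84.7% had that order. After rescaling 9 of the 10 genes kept it, beside 50.9% of all tested genes, and Bax turned to a ratio of 0.941. The rescaled ratios of Pmaip1, Zmat3, Perp and Eda2r were 1.73, 1.64, 1.60 and 1.55. Bbc3, at 1.03, was nearly level between the knockout libraries.

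**Figure D3:**
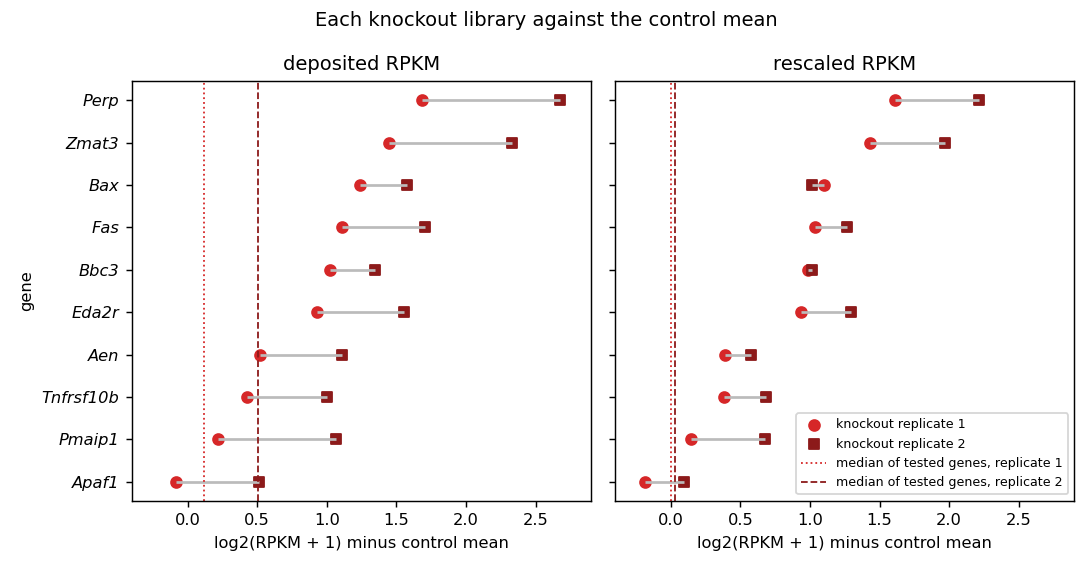
Distance of each knockout library from the control mean on the log2(RPKM + 1) scale (horizontal axis) for the 10 genes, before and after rescaling, with vertical lines for the median of all tested genes in each library. After rescaling both medians lie near 0, and 8 of the 10 genes stand right of them by more than 0.3 in both libraries.

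Marker genes of other cell types moved with the groups, in 2 patterns. All 7 osteoblast and stroma markers in the table, among them Bglap and Sparc, were higher in knockout and passed the test. Their median log2 change was 3.11 as deposited and 2.79 after rescaling, where all 7 had an unadjusted p under 0.05. Limma on rescaled values called none of these marker genes, or of any other marker list, in a fit that called 1 gene in all. Their sum was 446 and 259 RPKM in control, 6312 in knockout replicate 1 and 1577 in knockout replicate 2, and none was at 0. This sum was highest in knockout replicate 1. On the deposited scale all 10 cell death genes were higher in knockout replicate 2, beside 84.7% of all tested genes. After rescaling 9 of them were, beside 50.9% of all tested genes. All 10 neutrophil markers were lower in knockout and passed the test. Their median log2 change was -0.98 as deposited and -1.33 after rescaling, where 6 of 10 had an unadjusted p under 0.05, beside 7.5% of all tested genes on the lower side. They summed to 25566 and 25753 RPKM in control and to 16165 and 9947 RPKM in knockout. All 5 primary granule genes, whose sums are given above, were also called lower. Their median log2 change was -0.76 as deposited and -1.12 after rescaling, where 1 of 5 had an unadjusted p under 0.05. Voom called 0 of these 5. Of the tested markers, 4 of 5 megakaryocyte and 2 of 7 stem cell genes were called higher as deposited, with 0 of both in voom, and 0 of 4 endothelial genes were called. The megakaryocyte markers, with 5 of 6 in the table, summed to 379 and 344 RPKM in control and to 493 and 786 RPKM in knockout. The stem cell markers, with 8 of 9 in the table, summed to 59.8 and 72.2 RPKM in control and to 103 and 152 RPKM in knockout. The 4 endothelial markers in the table summed to 16.7 and 14.7 RPKM in control and to 20.5 and 37.5 RPKM in knockout. The neutrophil, primary granule, megakaryocyte, stem cell and endothelial sums lay farthest from control in knockout replicate 2. The part of any of these cell types, osteoblast and stroma included, in the changes of the cell death genes was not tested. Of 7 monocyte and macrophage markers, Ly6c2 alone was called lower, and it made up most of their sum of 591 and 620 RPKM in control and 458 and 301 RPKM in knockout. The other 6 summed to 36.4 and 21.4 RPKM in control and to 28.0 and 38.4 RPKM in knockout, which overlap. Erythroid sums, from 180 to 335 RPKM, and mast cell and basophil sums, from 31.2 to 76.6 RPKM, overlapped between the groups. Of 6 erythroid markers, Hbb-bs alone was called, and lower, at -0.78 (limma adjusted p = 0.00115). Lymphoid markers were low, with 3 of 6 B cell markers in the table summing to 17.9 to 37.4 RPKM and, of 7 T and NK cell markers, Klrb1c alone, at 0.344 to 1.43 RPKM.

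The rest of the pathway was read from lists that leave out the 10 genes. The gene of p53 itself did not pass the test. Trp53 stood at 136 and 150 RPKM in control and at 151 and 169 RPKM in knockout. Its log2 change was 0.16 (SE 0.17, adjusted p = 0.543) and turned to -0.19 after rescaling. Mdm2, the ligase that is both limit and target of p53, rose by 0.82 (SE 0.25, adjusted p = 0.0326), with 12.1 and 11.3 RPKM in control against 16.4 and 28.0 RPKM in knockout, and was not called after rescaling (0.227). It was the 1 gene called among 14 p53 regulators, whose median was 0.46. That count was 0 without control replicate 1, control replicate 2 or knockout replicate 2, settings with few calls over all genes, and 13 without knockout replicate 1, which called 54.3% of all tested genes higher.

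Of 15 other p53-induced genes with a link to cell death, 7 rose and 0 fell, where 3.33% of all tested genes were called higher. The median log2 change was 0.71. Trp53inp1 among them passed the filter only through its knockout values, so it had to differ. Plk2, a polo-like kinase, rose by 1.70 (SE 0.33, adjusted p = 2.89e-05), the costimulatory receptor gene Tnfrsf18 by 1.46 and Trp53inp1, a p53 cofactor of stress and autophagy, by 1.47. The other 4, named after their values were seen, were Pidd1, Ei24, Pdrg1 and Ddit4. Voom called 2 of the 15, where 0.435% of all genes were called higher. Limma on rescaled values called 0, with 8 higher at an unadjusted p under 0.05, beside 8.34% of all tested genes. Among 24 other p53-induced genes, mostly of arrest, growth and metabolism, 18 rose and 0 fell, and the median was 1.34 (1.13 after rescaling). Phlda3, Gdf15, Rprm, Dglucy, Trim7, Ephx1 and Sulf2, named after their values were seen, had control means below 1 RPKM. They passed the filter only through their knockout values, so they had to differ, and they stand in these counts and medians. Ei24 belongs to both lists. Cdkn1a, the arrest gene p21, at 3.78, Phlda3 at 3.56 and Psrc1 at 2.51 had the smallest p-values. Voom called 12 of these 24, beside the same 0.435% of all genes. Limma on rescaled values called 1 (Cdkn1a, adjusted p = 0.0461), the only gene called in that fit. Leaving out control replicate 1, control replicate 2 or knockout replicate 2 lowered the calls in both lists, in settings with few calls over all genes. Without knockout replicate 1 the calls rose in both lists, in the setting that called most tested genes higher.

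Apoptosis genes outside the p53 targets gave 0 calls in the 3 lists tested, where 3.33% of all tested genes were called higher and 0.86% lower, so the count is near that share. Among 9 tested BCL2 family genes the median was 0.33, near the 0.31 of all tested genes. The smallest p-values belonged to Bcl2l1, which encodes the survival factor Bcl-xL, at 0.62 (SE 0.24, adjusted p = 0.160), and Bad at 0.35 (adjusted p = 0.427). Among 18 genes of the apoptosome, caspases and their inhibitors the median was 0.39, with Casp2, a caspase of the p53 and genotoxic stress response, at 0.62 (adjusted p = 0.145). Among 12 genes of death receptor signalling, ligands and adaptors included, the median was 0.27. Tnfsf10, the gene of TRAIL, the ligand of Tnfrsf10b, was at 0.60 (adjusted p = 0.331), and Casp8, the initiator caspase of this arm, at 0.35 (adjusted p = 0.383). At an unadjusted p under 0.05 limma counted 1, 4 and 0 genes in these lists, in the order given here. The share over all tested genes at that threshold was not computed for deposited values. On rescaled values limma counted 0, 5 (2 higher and 3 lower) and 0, beside 8.34% of all tested genes higher and 7.5% lower. Neither limma on rescaled values nor voom called any. Without knockout replicate 1 the calls were 5, 13 and 7 higher and 0, 1 and 0 lower, in the setting that called 54.3% of all tested genes higher. Fasl, which encodes the ligand of Fas, was not analysed here.

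**Figure D4:**
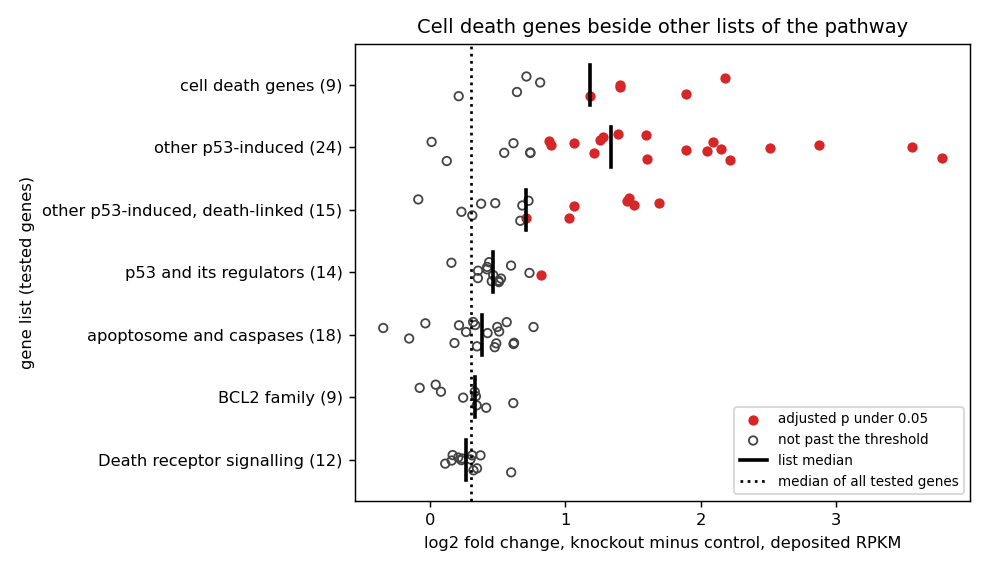
Log2 fold change (horizontal axis, deposited RPKM, knockout minus control) of each tested gene in the cell death list and in 6 other lists, with the list median as a black bar and the median of all tested genes as a dotted line. Filled red points passed the adjusted p threshold. They stand in the lists of p53-induced genes, with Mdm2 as the single one elsewhere.

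Other genes were ranked by the likeness of their profile to that of the cell death genes. Likeness was the Euclidean distance between centred log2(RPKM + 1) values and the mean profile of the 9 tested genes, over 4 libraries, and it is a description of the same contrast. The nearest 6 were Klf10, a transcriptional repressor induced by TGF-beta (distance 0.0471), Bbs7, a BBSome subunit of the cilium (0.0544), H2-Eb1, an MHC class II chain (0.0552), Rrad, a small GTPase (0.109), Gimap5, a lymphocyte GTPase (0.116), and Ddah2 (0.126). Bbs7 stood at 0.777 and 0.648 RPKM in control and at 2.03 and 3.68 RPKM in knockout, and was nearest of all after rescaling. Of the cell death genes themselves Fas (0.249) and Bbc3 (0.258) lay closest to their common mean and Perp (1.05) and Apaf1 (0.948) farthest from it.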

How the data were processed

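RNA of 2 control and 2 knockout libraries was made into cDNA with Smart-Seq V4, per the labels' protocols. The authors deposited 1 table of RPKM values per gene and library, a unit identified here from the values. The build is mm10, per the submitters' processing notes, while an aligner or counter is not given in the sources used here. Symbols and coordinates came from GENCODE vM21 and promoters from RefSeq on GRCm38.p6. Each RPKM value times the longest transcript length gave whole reads, within a tolerance of 0.1, for 98.9% to 99.3% of the values of a library. These recovered reads served for depth and for voom. The deposited table lists a gene without reads at 0.001, and every gene in it reaches at least 1.0063 RPKM in some library.

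Groups were compared on log2(RPKM + 1), a pseudocount of 1, by limma (version 3.58.1, R 4.3.3), whose variance prior followed the mean level. Genes averaging 1 RPKM or more entered, genotype was the only term, and 2 residual degrees of freedom remained. P-values were adjusted by Benjamini-Hochberg over all tested genes and called under 0.05. Errors beside RPKM are SDs (n = 2 per group), and SEs and 95% intervals belong to log2 fold changes. Rescaling used a trimmed mean of log ratios (30% of ratios and 5% of levels trimmed from each end). Tables and figures were made in Python 3.11.15. The scripts were tested on simulated data. Alternatives were a pseudocount of 0.1, no filter, rescaling, quantile normalization, voom on recovered reads, no trend, a replicate block and leaving out each library.

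Named genes are the 10 cell death genes, Ddx21, Trp53, Mdm2, up to 3 called genes per list by p-value in each direction (2 uncalled where none was called), the 6 genes with the nearest profile, and the markers that give a range. One gene that this rule names is not reported here. The 10 genes and all lists were chosen with earlier results of these data known.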

Additional observations from a re-analysis of the deposited data

How the results depend on the processing

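Of the 9 tested cell death genes, 5 were called higher, among them Bbc3 and Zmat3, which passed the filter only through their knockout values. The count was 6 with a pseudocount of 0.1, 7 of 10 without the filter, 5 without the trend and 4 in voom. Over all genes 391 were called higher in the main fit, and 402, 439, 373 and 51 in these alternatives, in that order. The count of cell death genes was 0 after rescaling by a trimmed mean and 0 after quantile normalization, each with 7 at an unadjusted p under 0.05. After rescaling 8.34% of all tested genes were higher at that threshold. Leaving out 1 library raised the count only without knockout replicate 1, a setting that called most tested genes higher, and lowered it otherwise. After rescaling, an alternative chosen after seeing the data, leaving out 1 library gave calls only without knockout replicate 1. The count called lower was 0 in every setting run. With the replicate number as a replicate block the count was 4, and Fas missed the threshold. Deviations of same-numbered libraries correlated at 0.0668 over 11742 genes (0.0373 rescaled), and nothing else shows that the numbers pair the libraries. The log2 fold change of Apaf1 turned negative after rescaling (-0.0462), after quantile normalization (-0.13) and in voom (-0.0433). Leaving out 1 library put it between -0.0859 and 0.51, and after rescaling at -0.0175, -0.0749 and -0.19 without control replicate 1, control replicate 2 and knockout replicate 2. Ddx21 passed the threshold in voom (-1.21), without knockout replicate 1 within a range of -0.83 to -0.69 over libraries left out, and likewise after rescaling, with a range of -1.22 to -0.93. The 18 calls among other p53-induced genes fell to 1 after rescaling, 0 after quantile normalization and 12 in voom. They also fell without control replicate 1 or control replicate 2. The 7 calls of the death-linked list fell to 0 after rescaling and 2 in voom. The cause of these differences was not tested. With 2 libraries a group, small differences may have gone undetected, and 10 to 61 reads lay behind the control values of Eda2r and Bbc3. The size of difference that could be detected was not tested.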

Other observations

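A list of other forms of cell death was chosen after the cell death genes had been seen. Of 18 genes of necroptosis, pyroptosis and ferroptosis, 16 were in the table and tested, 2 rose and 0 fell by limma on deposited values, where 3.33% of all tested genes were called higher. Their median log2 fold change was 0.26, beside 0.31 for all tested genes. The inflammatory caspase gene Casp4 stood at 7.53 and 8.18 RPKM in control and at 12.5 and 19.6 RPKM in knockout, a change of 0.91 (adjusted p = 0.0308). Ninj1, whose protein ruptures the plasma membrane of dying cells, stood at 85.1 and 83.1 RPKM in control and at 117 and 130.2 RPKM in knockout, a change of 0.55 (adjusted p = 0.0456). Casp4 and Ninj1 had no overlap between the groups, an order that 8 of the 16 genes and 55.5% of all tested genes had. Neither of these 2 genes was called by limma after rescaling (adjusted p = 0.156 and 0.572) or in voom (0.102 and 0.495).

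Other genes of these pathways did not pass the test. The necroptosis kinase Ripk3 and the pore former Mlkl differed by 0.34 and 0.32, and by -0.01 and -0.02 after rescaling. Gsdmd, which encodes the pore former of pyroptosis, differed by 0.01, and by -0.34 after rescaling. Gpx4, the lipid peroxide reductase that restrains ferroptosis, differed by 0.02, and by -0.33 after rescaling. The median of the list after rescaling was -0.05, beside 0.01 for all tested genes, with 0 calls. At an unadjusted p under 0.05, 2 were then higher (Casp4 and Casp12) and 3 lower (Gsdmd, Sat1 and Tfrc), beside 8.34% of all tested genes higher and 7.5% lower. In the test on deposited values 3 of the 16 had an unadjusted p under 0.05, a threshold whose share over all tested genes was not computed there. Voom called 0. These genes other than Casp4 and Ninj1 were named after their values were seen.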
